A study of Mus musculus with 10 samples.

Results

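The genes described here encode the enzymes and carriers that remove reactive oxygen species and that make, use and recycle glutathione, together with the factors that control them in the cell. They were chosen by gene symbol: the glutathione S-transferases, glutathione peroxidases, peroxiredoxins, superoxide dismutases, thioredoxins and thioredoxin-domain proteins, glutaredoxins, the enzymes of glutathione synthesis and reduction, catalase, sulfiredoxin, the quinone reductases, the heme oxygenases, *Nfe2l1*, *Nfe2l2* and *Keap1*. Of 17813 genes measured, 71 matched, and each was represented by its brightest probe set that names 1 gene. All 71 were tested and no filter on low values was applied. The mean signal of 14 of them lay under the median of all probe set values, a log2 signal of 7.11.

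RNA came from distal tip cells of the mouse lung at 2 stages, with 5 arrays each. At E17.5, lungs were dissociated with trypsin and GFP+ cells were sorted, the mothers having received tamoxifen (150 µg per g body weight) at E16.5. At E11.5, tips were cut out by hand after a dispase treatment, and tamoxifen is described for the later stage only. Embryos of both stages carried *Id2-CreER* and *Rosa26R-fGFP*. Stage cannot be told apart from dissociation, sorting and tamoxifen in these samples. Cre is driven from *Id2*, and the GFP label is heritable, so the sorted cells hold tip cells and some of their recent progeny. Values are log2 signals as deposited, and differences are E17.5 minus E11.5 on that scale, tested with limma, with p-values adjusted over all genes (Benjamini-Hochberg) and a threshold of 0.05. In bulk RNA, more cells of a type and more RNA per cell cannot be told apart. The arrays are labelled as biological replicates, and whether these came from separate litters is not stated.

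Superoxide dismutases turn superoxide into hydrogen peroxide, which catalase, glutathione peroxidases and peroxiredoxins then remove. Glutathione peroxidases draw on glutathione, a tripeptide made by glutamate-cysteine ligase and glutathione synthetase and kept reduced by glutathione reductase, whereas peroxiredoxins draw on thioredoxin, kept reduced by thioredoxin reductase. Glutathione S-transferases attach glutathione to lipid peroxides and foreign compounds. The transcription factor NRF2 (*Nfe2l2*) induces many of these genes, and KEAP1 holds it in check by sending it for degradation. In the lung these systems are known for preparing the epithelium for breathing air at birth.

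The samples carried markers of lung epithelium at both stages, and most markers of macrophages and endothelium were higher at E17.5. The mean log2 signal of 19 pan-epithelial genes ranged over 11.94 to 12.27 at E17.5 (11.23 to 11.51 at E11.5), with 10 of the 19 higher and 4 lower. That of 10 alveolar type 2 genes ranged over 12.23 to 12.54 at E17.5 (7.43 to 7.78 at E11.5), with 9 higher and *Lpcat1* lower (3.17 at E17.5 and 7.90 at E11.5). By staining, the paper found LPCAT1 protein robustly in tip cells from E16.5 on, unlike this RNA signal. Macrophage and monocyte markers were mostly higher at E17.5 (19 of 23, with 2 lower), with list means of 8.40 to 9.20 at E17.5 against 5.41 to 6.10 at E11.5. Of 20 endothelial markers, 17 were higher and 1 was lower (8.53 to 10.41 at E17.5 against 5.69 to 6.52 at E11.5), and of 23 immediate early genes, 20 were higher and 3 lower (10.91 to 11.16 at E17.5 against 7.55 to 7.66 at E11.5). Of 10 alveolar type 1 and 10 bronchiolar secretory genes, 10 and 8 were higher, of 10 distal tip genes 4 were higher and 5 lower, of 20 mesenchymal genes 8 were higher and 6 lower, and of 9 erythroid genes 1 was higher and 5 were lower. Their part in the results below was not tested. The arrays correlated at 0.984 to 0.993 within E17.5, 0.988 to 0.996 within E11.5 and 0.819 to 0.847 between the stages. The upper quartile of the signals was 9.996 to 10.04 at E17.5, against 9.417 to 9.457 at E11.5.

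As a group these genes were more often higher than lower at E17.5. Of the 71, 40 passed the threshold as higher and 13 as lower, and 18 did not pass. Over all genes, 36.9% were higher, 31.5% lower and 68.4% past the threshold in either direction. At least a 2-fold rise was found for 30 members and at least a 2-fold fall for 5, against 24.2% and 16.3% of all genes. For 37 members every E17.5 array lay above every E11.5 array and for 10 every E17.5 array lay below, against 32.3% and 26.3% of all genes. The median difference was 0.53 for the members and 0.03 for all genes. Dim genes made up a smaller share of the members: 14 of 71 lay under the median of all probe set values, against 7995 of 17813 genes. With such dim genes left out, 37 of 57 members were higher and 12 lower, against 48.7% and 35.3% of all genes left. The median difference was then 0.89 for the members and 0.22 for all genes left. The split depended on the scaling: after quantile normalization between arrays 32 members were higher and 19 lower, against 31.9% and 39.0% of all genes, and the median difference was 0.29 for the members and -0.04 for all genes. After median centring, which moved the median of all genes by -0.13, 39 members were higher and 16 lower, against 33.2% and 36.9% of all genes. Over all genes lower calls thus outnumbered higher ones under both of these scalings, while among the members higher calls outnumbered lower ones under all 3. At least a 2-fold rise was left for 21 members and at least a 2-fold fall for 9 after quantile normalization, against 20.1% and 22.1% of all genes, and for 26 and 6 after median centring, against 22.5% and 18.3%. The counts per family below are to be read against these shares of all genes, and most families are small.

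**Figure D1:**
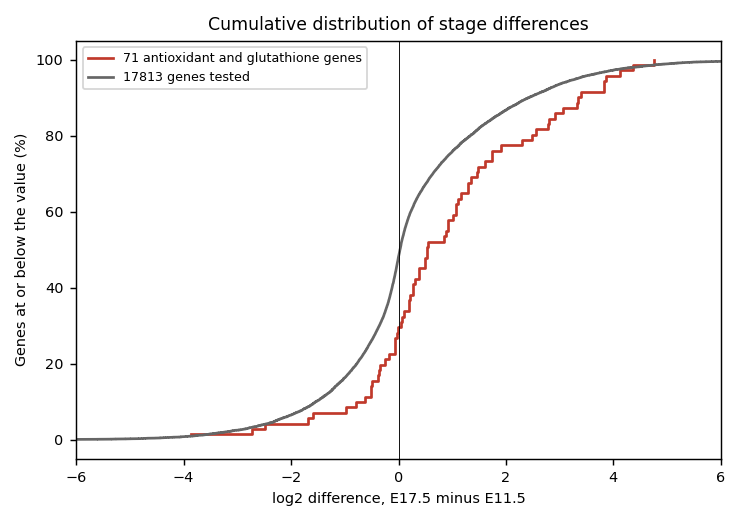
Cumulative share of genes (y axis, %) by log2 difference, E17.5 minus E11.5 (x axis), for the 71 antioxidant and glutathione genes (red) and all 17813 genes tested (grey). The red curve lies to the right over most of its length, with a median of 0.53 against 0.03 for all genes.

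The regulator *Nfe2l2* itself was among the largest rises. Its log2 signal was 13.28, 13.03, 13.01, 12.93 and 12.97 on E17.5 replicates 1 to 5, against 8.70, 8.69, 8.59, 8.49 and 8.93 on E11.5 replicates 1 to 5. The stages lay far apart with little spread within each, a 20.5-fold rise (difference 4.36, SE 0.10, adjusted p = 4.9e-12 from limma). *Keap1*, its inhibitor, was at 10.99, 10.80, 10.86, 11.44 and 11.05 at E17.5 and at 8.88, 9.14, 9.10, 9.17 and 9.26 at E11.5. It rose 3.77-fold (difference 1.91, SE 0.13, adjusted p = 3.7e-08), so transcripts of the activator and of its inhibitor were both higher, again with no overlap between stages. *Nfe2l1*, which encodes the related factor NRF1, did not pass (difference 0.20, 95% interval -0.08 to 0.48, adjusted p = 0.19) and after quantile normalization passed as lower (-0.28, adjusted p = 0.044).

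Partners of NRF2 from a list of other redox genes moved the same way as *Nfe2l2* in most cases. The small Maf proteins pair with NRF2 on DNA, and *Maff* rose 15.1-fold (12.11 ± 0.08 at E17.5 and 8.19 ± 0.19 at E11.5, SD, n = 5 each) and *Mafk* 4.57-fold, while *Mafg* did not pass (difference 0.32, adjusted p = 0.12, and -0.28 after quantile normalization). *Maff* also stands in the immediate early list. *Bach1*, a repressor that competes with NRF2 for the same sites, rose 7.38-fold (12.75 ± 0.14 at E17.5 and 9.86 ± 0.08 at E11.5). *Cul3*, the ubiquitin ligase scaffold that KEAP1 recruits, rose 2.76-fold, and *Sqstm1*, the autophagy receptor that can sequester KEAP1, rose 2.39-fold. After quantile normalization the differences of *Cul3* and *Sqstm1* were 0.93 and 0.70.

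NRF2 with a small Maf binds the antioxidant response element, whose core is TGACNNNGC, where N is any base. The core was searched on both strands of windows of 300 bases (250 before and 50 after each annotated start, RefSeq, GRCm38.p6). Windows were found for 63 of the 71 members, and *Gclc*, *Gsr*, *Gsta4*, *Gstt2*, *Hmox1*, *Sod3*, *Txnl1* and *Txnl4a* had none in the table. The core was in a window of 12 of these 63 members (19%), against 3781 of 27025 genes (14%), and in 12 of 92 windows of members (13%), against 12.4% of all 32851 windows. By call, it was found in 6 of 35 members that were higher, 2 of 10 that were lower and 4 of 18 that did not pass. None of the 12 matches held the related AP-1 motif TGANTCA within its own letters, a motif found in a window of 6 of the 63 members and in 8.97% of genes. A match is a stretch of letters and says nothing of binding in these cells. The lack of a match in windows of 300 bases says nothing of sites that lie outside them. The sequences below show the matches of members with large differences in either direction, and of *Gclm* and *Srxn1*, which hold the core and did not pass. Each is written 5′ to 3′ on the strand that reads the core, which is in capitals.
*Mgst1* (chr6:138140455-138140495, minus strand): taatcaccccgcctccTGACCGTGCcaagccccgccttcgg
*Nfe2l2* (chr2:75704879-75704913, minus strand): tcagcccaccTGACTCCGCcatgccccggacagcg
*Txndc11* (chr16:11134749-11134782, minus strand): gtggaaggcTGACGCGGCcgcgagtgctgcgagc
*Txnrd1* (chr10:82859098-82859138, minus strand): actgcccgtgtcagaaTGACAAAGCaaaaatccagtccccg
*Gsta3* (chr1:21240448-21240488, plus strand): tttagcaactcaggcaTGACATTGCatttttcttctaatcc
*Gstm5* (chr3:107895796-107895836, plus strand): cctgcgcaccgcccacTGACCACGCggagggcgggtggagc
*Gclm* (chr3:122245407-122245447, minus strand): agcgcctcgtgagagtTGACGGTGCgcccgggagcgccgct
*Srxn1* (chr2:152105536-152105573, minus strand): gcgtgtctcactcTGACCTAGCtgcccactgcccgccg
The middle base of the core lay 52 bases before the start in *Mgst1*, 88 in *Txnrd1*, 117 in *Gsta3*, 38 in *Gstm5*, 130 in *Gclm*, 236 in *Nfe2l2* and 237 in *Txndc11*, and 32 bases after it in *Srxn1*. The bases between TGAC and GC differed between all 8, and the differences of these members ran between a rise of 4.77 for *Mgst1* and a fall of 1.58 for *Gstm5* on the log2 scale. The other members with a match were *Gstm7*, *Sod1*, *Txndc2* and *Txndc5*.

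All 3 microsomal glutathione S-transferases rose, and *Mgst1* had the largest rise of the 71. MGST1 is an enzyme of the endoplasmic reticulum and outer mitochondrial membrane that also reduces lipid hydroperoxides. Its signal was 12.82, 12.67, 12.73, 12.42 and 12.53 at E17.5, against 7.78, 7.81, 7.95, 7.93 and 7.87 at E11.5, a 27.2-fold rise (difference 4.77, SE 0.09, adjusted p = 1.1e-12). The SD was 0.16 at E17.5 and 0.07 at E11.5, small beside the distance between stages. *Mgst2*, which can also make leukotriene C4, rose 10.2-fold and *Mgst3* 8.30-fold, and in both every E17.5 array lay above every E11.5 array. These rises stayed above 2-fold after quantile normalization, with a median log2 difference of 2.96.

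**Figure D2:**
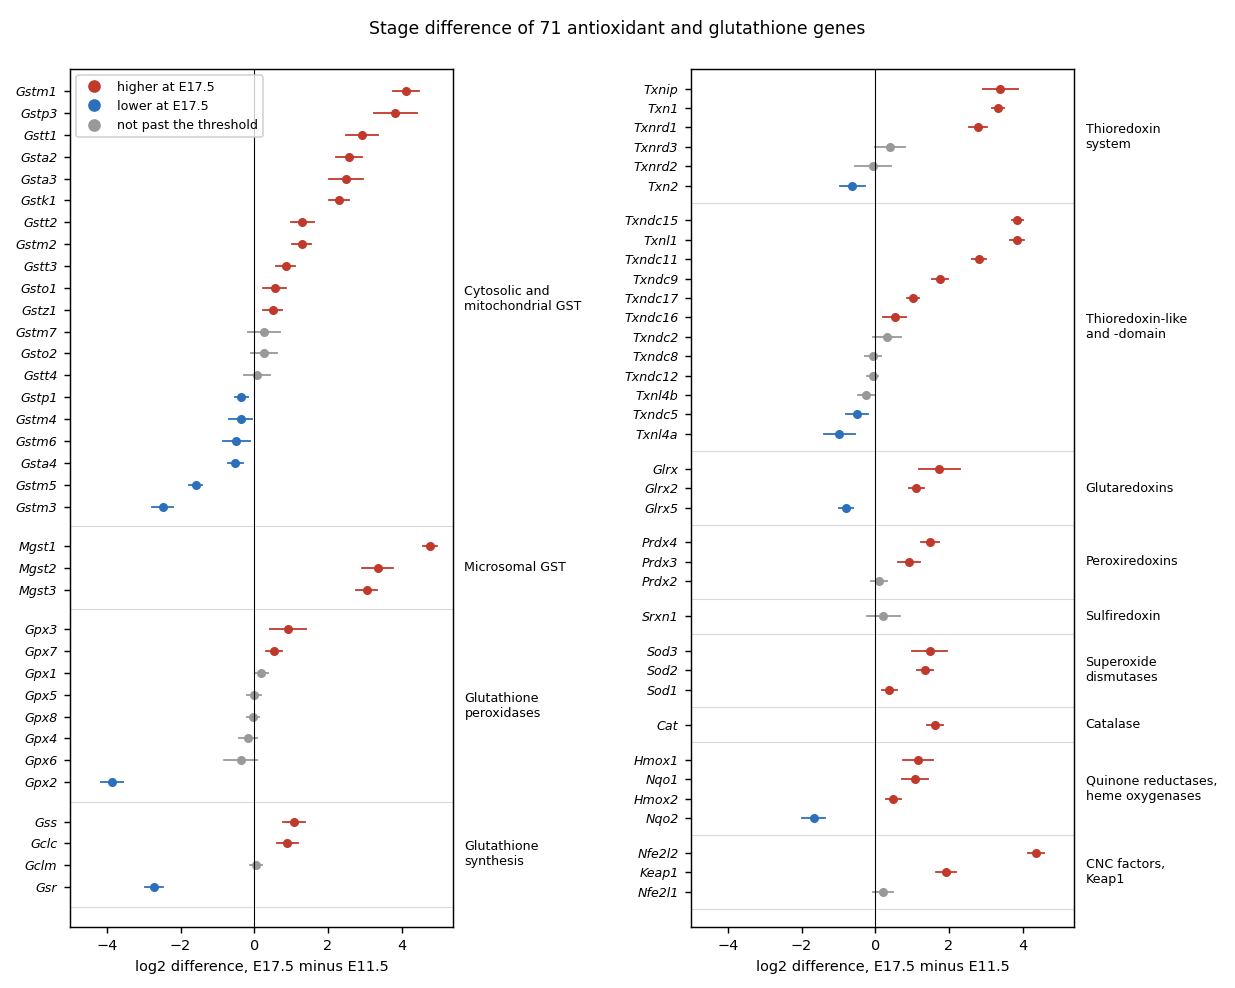
Difference in mean log2 signal, E17.5 minus E11.5 (x axis), of each of the 71 genes, grouped by role, with the 95% interval from limma as a line. Red genes were higher, blue genes lower and grey genes did not pass. The 3 microsomal transferases lie between 3.05 and 4.77, and *Gpx2* at -3.86 is the lowest.

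The 20 cytosolic and mitochondrial glutathione S-transferases went both ways, with 11 higher, 6 lower and 3 that did not pass (9 higher and 5 lower after quantile normalization). The share that was lower, 30%, was near the 31.5% of all genes, and 55% were higher, against 36.9%. *Gstm1*, of the mu class, had signals of 11.10, 11.24, 11.08, 10.30 and 11.10 at E17.5, against 6.93, 6.85, 6.84, 6.96 and 6.65 at E11.5. It rose 17.4-fold (difference 4.12, SE 0.16, adjusted p = 3.1e-10), with E17.5 replicate 4 below the other E17.5 arrays but far above every E11.5 array. Its probe set carries the suffix _x, which marks probes that can match other transcripts, and the mu genes are close relatives. Smaller rises of at least 2-fold were found for *Gstp3* (14.2-fold), *Gstt1* (7.55-fold), the alpha class genes *Gsta2* (5.93-fold) and *Gsta3* (5.61-fold), *Gstk1*, the enzyme of mitochondria and peroxisomes (4.95-fold), *Gstt2* (2.46-fold) and *Gstm2* (2.44-fold), the last 2 below 2-fold after quantile normalization (differences 0.70 and 0.72). *Gstt3* rose 1.80-fold. *Gsto1*, an omega class enzyme that reduces dehydroascorbate, rose 1.46-fold and *Gstz1*, an enzyme of tyrosine breakdown, 1.41-fold, but after quantile normalization both were slightly negative (-0.02 and -0.09) and did not pass.

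Among the falls, *Gstm3* was at 4.13, 4.21, 4.31, 4.31 and 4.63 at E17.5, against 7.08, 6.58, 6.63, 6.98 and 6.75 at E11.5. It was lower on every array (difference -2.49, SE 0.13, adjusted p = 3.2e-09), with signals at E17.5 near the low end of the table, whose lowest value was 2.472. *Gstm5* fell by 1.58 on the log2 scale and *Gsta4*, which conjugates the lipid peroxidation product 4-hydroxynonenal, by 0.51. *Gstp1*, *Gstm4* and *Gstm6* fell by 0.35, 0.37 and 0.49. Of these, *Gstm6* did not pass after quantile normalization (-0.42, adjusted p = 0.056) and *Gstm4* did not pass without E17.5 replicate 1 (-0.32), 2 (-0.34) or 5 (-0.32) or without E11.5 replicate 1 (-0.30) or 4 (-0.34). *Gstm6* was also dim, with means of 3.36 at E17.5 and 3.85 at E11.5, where replicate 5 was the highest at 4.56. *Gstm7*, *Gsto2* and *Gstt4* did not pass, with differences of 0.27, 0.26 and 0.07.

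The mu class genes form 1 cluster on chromosome 3, and members next to each other in it differed in direction. In RefSeq order the members are *Gstm5*, *Gstm7*, *Gstm6*, *Gstm3*, *Gstm2*, *Gstm1* and *Gstm4*. *Gstm2* and *Gstm1*, side by side, rose by 1.29 and 4.12, and the members on either side of this pair, *Gstm3* and *Gstm4*, fell by 2.49 and 0.37. In the theta class cluster on chromosome 10, *Gstt3*, *Gstt1* and *Gstt2* were higher and *Gstt4* did not pass. The pi class genes *Gstp1* and *Gstp3* on chromosome 19 went opposite ways, by -0.35 and 3.83. Related genes of a class can share probe matches, and the differences above are those of single probe sets.

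Of 8 glutathione peroxidases, 2 were higher, 1 was lower and 5 did not pass (0 higher and 3 lower after quantile normalization). *Gpx2*, the epithelial form known best from the gut, had the largest fall of the 71. Its signal was 7.11, 6.93, 7.31, 7.08 and 7.23 at E17.5, against 10.52, 11.07, 10.98, 11.27 and 11.12 at E11.5, which is 14.5-fold lower (difference -3.86, SE 0.14, adjusted p = 1.1e-10). The stages were separated by over 3 log2 units at their nearest arrays. *Gpx3*, the secreted form, rose 1.89-fold (difference 0.92, adjusted p = 0.0028) but did not pass after quantile normalization (0.33, adjusted p = 0.23). *Gpx7*, of the endoplasmic reticulum, rose 1.45-fold, and its difference after quantile normalization was -0.05.

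*Gpx1*, the main cytosolic form, and *Gpx4*, which reduces phospholipid hydroperoxides in membranes and guards against ferroptosis, did not pass. *Gpx1* had a difference of 0.19 (95% interval 0.01 to 0.38, adjusted p = 0.063), which turned to -0.18 after quantile normalization (adjusted p = 0.099). *Gpx4* had one of -0.17 (95% interval -0.41 to 0.06), which passed as lower after quantile normalization (-0.69) and median centring (-0.30). *Gpx8*, also of the endoplasmic reticulum, had one of -0.03 (95% interval -0.21 to 0.14) and passed as lower after quantile normalization (-0.45). *Gpx5* and *Gpx6*, known from epididymis and olfactory epithelium, were dim at both stages, with mean signals of 3.39 and 5.11 at E17.5 and 3.39 and 5.47 at E11.5. *Gpx6* passed as lower without E17.5 replicate 1 (-0.56, adjusted p = 0.0036).

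The enzymes that make and recycle glutathione did not move together, with 2 of 4 higher and 1 lower (1 higher and 2 lower after quantile normalization). *Gsr*, which encodes glutathione reductase, was at 8.55, 8.29, 8.29, 8.32 and 8.39 at E17.5, against 10.78, 11.29, 11.08, 11.08 and 11.22 at E11.5. It was 6.60-fold lower (difference -2.72, SE 0.11, adjusted p = 2.8e-10), and the stages did not overlap. *Gclc*, the catalytic subunit of glutamate-cysteine ligase, was at 10.85, 10.41, 10.48, 10.05 and 10.48 at E17.5, against 9.57, 9.47, 9.69, 9.45 and 9.64 at E11.5. It rose 1.86-fold (difference 0.89, SE 0.13, adjusted p = 5.6e-05) but did not pass after quantile normalization (0.29, adjusted p = 0.063). *Gclm*, the modifier subunit of the same enzyme, was at 8.96, 8.95, 9.02, 8.94 and 9.04 at E17.5 and at 9.03, 8.97, 8.88, 8.82 and 8.93 at E11.5, so that the stages overlapped (difference 0.05, 95% interval -0.11 to 0.21, adjusted p = 0.57). After quantile normalization *Gclm* passed as lower (-0.46, adjusted p = 8.3e-05). *Gss*, glutathione synthetase, rose 2.10-fold (8.76 ± 0.29 at E17.5 and 7.69 ± 0.15 at E11.5, SD, n = 5 each). Its difference after quantile normalization was 0.70. *Gss* alone of the 71 had more than 1 single-gene probe set among the deposited values.

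**Figure D3:**
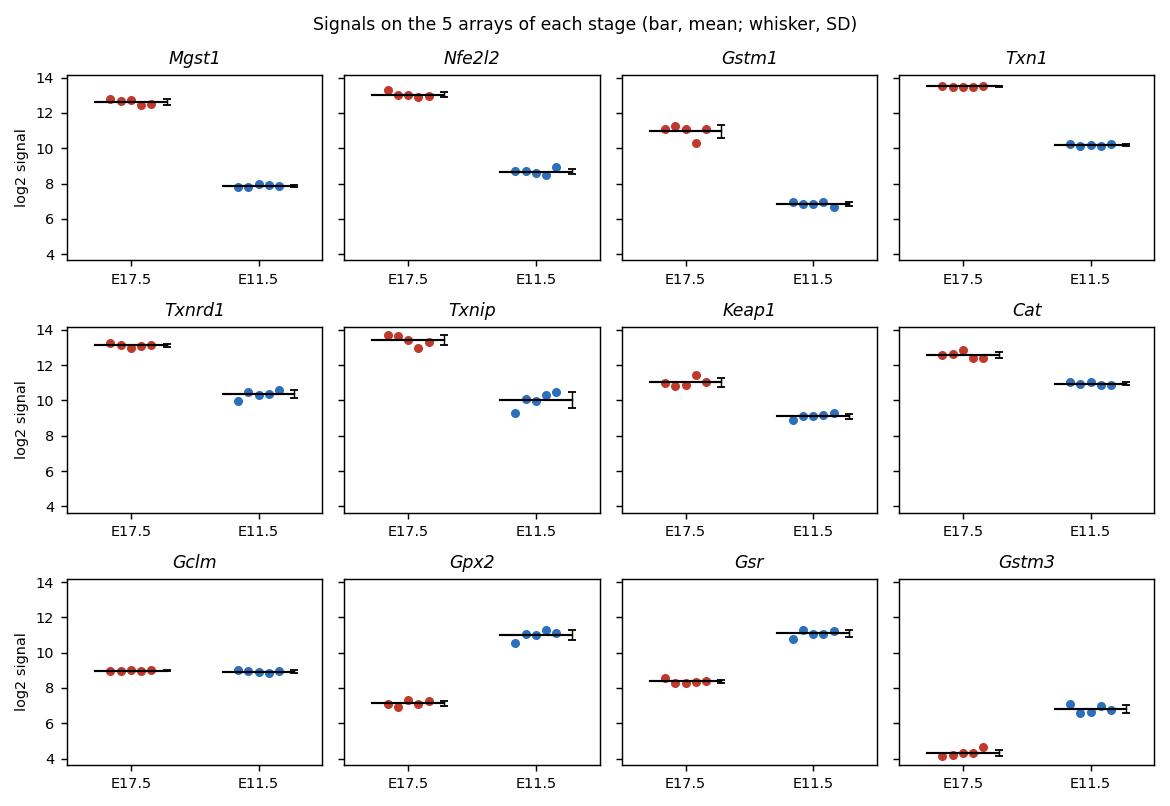
Log2 signal (y axis) of 12 genes on each of the 5 arrays of E17.5 (red, left) and E11.5 (blue, right), with the mean as a bar and the SD as a whisker. *Gclm* overlaps between stages, *Gpx2*, *Gsr* and *Gstm3* are lower at E17.5 on every array, and the other 8 are higher on every array.

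In the thioredoxin system, the cytosolic pair rose and the mitochondrial pair did not. *Txn1*, the cytosolic thioredoxin, rose by 3.32 on the log2 scale, with means of 13.51 ± 0.03 at E17.5 and 10.18 ± 0.06 at E11.5 (SD, n = 5 each, adjusted p = 2.1e-12). *Txnrd1*, its reductase, was at 13.24, 13.14, 12.98, 13.11 and 13.14 at E17.5, against 9.97, 10.46, 10.32, 10.38 and 10.57 at E11.5, a 6.89-fold rise (difference 2.78, SE 0.11, adjusted p = 3.8e-10). For both genes the stages lay more than 2 log2 units apart at their nearest arrays. *Txnip*, an arrestin-like protein that binds thioredoxin and lowers glucose uptake, was at 13.68, 13.66, 13.41, 12.98 and 13.30 at E17.5, against 9.28, 10.06, 9.94, 10.31 and 10.49 at E11.5. It rose 10.5-fold (difference 3.39, SE 0.21, adjusted p = 2.5e-08), so that thioredoxin and its inhibitor were both higher. *Txn2*, the mitochondrial thioredoxin, fell by 0.63 (adjusted p = 0.0032), with overlapping arrays and a probe set of the _x kind. *Txnrd2*, the mitochondrial reductase, had a difference of -0.07 (95% interval -0.55 to 0.41) and *Txnrd3*, known from testis, one of 0.39 (95% interval -0.02 to 0.80, and -0.07 after quantile normalization).

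The 12 thioredoxin-like and thioredoxin-domain genes, with 6 higher, 2 lower and 4 that did not pass (5 higher and 4 lower after quantile normalization), mostly have roles other than defence against oxidants. *Txndc15*, which encodes a membrane protein needed at the primary cilium, was at 11.44, 11.32, 11.44, 11.46 and 11.45 at E17.5, against 7.56, 7.56, 7.66, 7.56 and 7.49 at E11.5. It rose 14.5-fold (difference 3.85, SE 0.07, adjusted p = 9.8e-13), with the stages far apart on every array. *Txnl1*, a thioredoxin-like protein bound to the proteasome, rose 14.3-fold. *Txndc11*, a partner of the dual oxidases, rose by 2.81 on the log2 scale, and *Txndc9*, a cofactor in chaperonin folding of actin and tubulin, rose 3.36-fold. *Txndc17*, a small cytosolic thioredoxin-related protein, rose 2.02-fold, with a difference of 0.51 after quantile normalization. *Txndc16* rose 1.44-fold, with overlapping arrays, and was at 0.02 after quantile normalization. *Txnl4a*, a component of the spliceosome, fell by 0.98 and *Txndc5*, a disulfide isomerase of the endoplasmic reticulum, by 0.50 (-1.09 after quantile normalization). *Txndc12* (-0.07) and *Txnl4b* (-0.24) did not pass, and both passed as lower after quantile normalization (-0.66 and -0.78) and median centring (-0.20 and -0.37). *Txndc2* and *Txndc8*, known from sperm, did not pass either.

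All 3 superoxide dismutases and catalase were higher, *Sod1* not after median centring or quantile normalization. *Sod2*, the mitochondrial manganese enzyme, was at 11.88, 11.49, 11.78, 11.54 and 11.44 at E17.5, against 10.31, 10.26, 10.26, 10.27 and 10.27 at E11.5, a 2.55-fold rise (difference 1.35, SE 0.10, adjusted p = 9.5e-08, and 0.76 after quantile normalization). *Sod3*, the extracellular enzyme, was at 6.55, 5.30, 5.78, 5.18 and 5.63 at E17.5, against 4.06, 4.35, 4.35, 4.31 and 4.02 at E11.5, a 2.77-fold rise (adjusted p = 7.2e-05) between signals that were dim at both stages. *Sod1*, the cytosolic copper and zinc enzyme, was at 10.25, 10.04, 10.13, 10.19 and 9.86 at E17.5 and at 9.60, 9.71, 9.65, 9.77 and 9.86 at E11.5. The *Sod1* arrays met at 9.86, and its 1.30-fold rise (adjusted p = 0.0036) did not pass after median centring (0.24, adjusted p = 0.063) and turned to -0.22 after quantile normalization (adjusted p = 0.056). *Cat*, the peroxisomal enzyme that breaks down hydrogen peroxide, was at 12.55, 12.62, 12.84, 12.42 and 12.38 at E17.5, against 11.05, 10.92, 11.04, 10.86 and 10.87 at E11.5. It rose 3.07-fold (difference 1.62, SE 0.10, adjusted p = 2.2e-08), and the stages did not overlap.

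Of the 3 peroxiredoxins measured, 2 were higher, and the third passed as lower after quantile normalization. *Prdx1* and *Prdx5* were looked for but had no probe set that names them alone, and *Prdx6* was not among the symbols chosen. *Prdx4*, of the endoplasmic reticulum, was at 12.23, 12.49, 12.48, 12.82 and 12.64 at E17.5, against 11.14, 11.09, 10.96, 11.06 and 11.03 at E11.5, a 2.78-fold rise (adjusted p = 9.4e-08). *Prdx3*, of mitochondria, rose 1.88-fold. After quantile normalization the differences of *Prdx4* and *Prdx3* were 0.97 and 0.41. *Prdx2*, cytosolic, had a difference of 0.10 (95% interval -0.13 to 0.33) and passed as lower after quantile normalization (-0.29, adjusted p = 0.03). *Srxn1*, sulfiredoxin, which restores over-oxidized peroxiredoxins, was at 9.05, 8.19, 8.50, 7.98 and 7.90 at E17.5 and at 7.84, 7.998, 8.06, 8.28 and 8.37 at E11.5. These overlapped, and its difference of 0.21 did not pass (95% interval -0.23 to 0.66, adjusted p = 0.38, and -0.16 after quantile normalization).

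Glutaredoxins use glutathione to reduce disulfides and carry iron-sulfur clusters. *Glrx*, the cytosolic form, was at 12.55, 12.02, 11.83, 11.78 and 12.09 at E17.5, against 9.46, 10.53, 10.02, 10.83 and 10.74 at E11.5, a 3.34-fold rise (difference 1.74, SE 0.25, adjusted p = 5.3e-05). The E11.5 arrays were spread over more than 1 log2 unit and still lay below every E17.5 array. *Glrx2*, found in mitochondria and nucleus, rose 2.16-fold, with a difference of 1.11 as deposited and 0.51 after quantile normalization. *Glrx5*, which passes iron-sulfur clusters on in mitochondria, fell by 0.80 (adjusted p = 2.7e-06), with every E17.5 array below every E11.5 array.

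Among the quinone reductases and heme oxygenases, *Hmox1* and *Nqo1* are classical stress-induced genes. *Hmox1*, the inducible heme oxygenase, was at 10.53, 10.41, 10.32, 9.36 and 10.26 at E17.5, against 9.07, 9.06, 9.03, 8.89 and 9.03 at E11.5, a 2.24-fold rise (adjusted p = 0.00014). E17.5 replicate 4 was nearest to the E11.5 arrays. HMOX1 is also abundant in macrophages, whose markers were higher at E17.5 as given above. *Nqo1*, a commonly used NRF2 target, was at 7.89, 7.90, 7.81, 7.94 and 7.61 at E17.5, against 7.16, 6.55, 6.26, 7.06 and 6.80 at E11.5, a 2.09-fold rise (difference 1.06, SE 0.16, adjusted p = 7.5e-05). *Nqo2* went the other way, with 7.11, 7.25, 6.88, 7.74 and 7.48 at E17.5, against 9.02, 9.06, 8.94, 8.86 and 8.97 at E11.5, which is 3.20-fold lower (difference -1.68, SE 0.14, adjusted p = 4.4e-07). *Hmox2*, the constitutive heme oxygenase, rose 1.40-fold and was at 0.02 after quantile normalization. The rises of *Hmox1* and *Nqo1* still passed after it but were below 2-fold (differences 0.59 and 0.90).

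**Figure D4:**
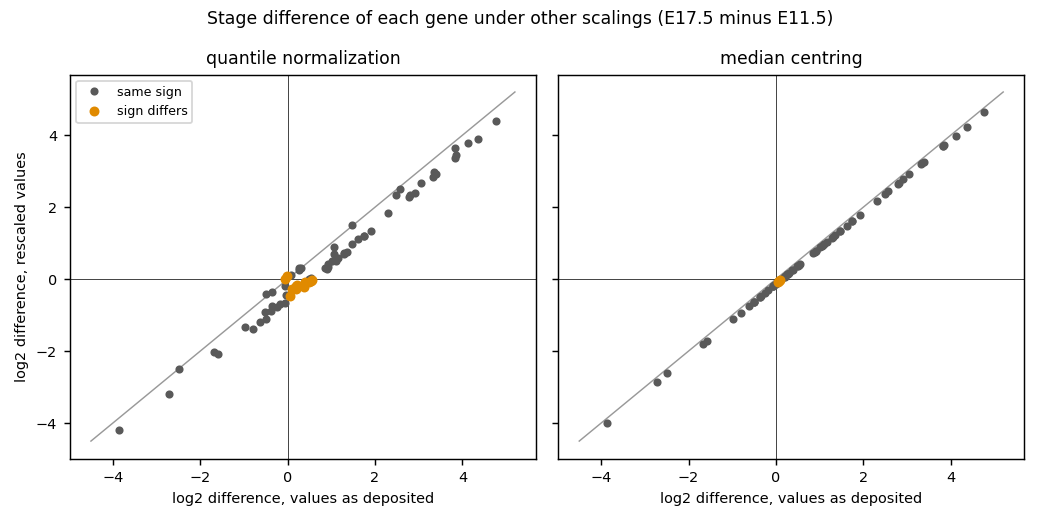
Log2 difference, E17.5 minus E11.5, of the 71 genes after quantile normalization (left) and median centring (right) on the y axis, against that of the values as deposited on the x axis, with the line of equality in grey. After quantile normalization 63 of the 71 lie below the line and 12 change sign (orange), *Gsto1* with the largest deposited difference among these (0.55), and after median centring all 71 lie below it and 3 change sign.

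Other genes of glutathione turnover and redox balance were taken from a list of 70 genes, of which 58 were measured. Of these, 33 were higher, 14 lower and 11 did not pass, with a median difference of 0.47 (25 higher and 21 lower after quantile normalization, with a median of 0.12). Over all genes 36.9% were higher and 31.5% lower, with a median of 0.03. After quantile normalization these shares were 31.9% and 39.0%, with a median of -0.04. The 6 largest changes and the partners of NRF2 were named by rule, and the other genes of this and the next paragraph were chosen after their values were seen. The metallothionein *Mt1* rose 42.5-fold (13.61 ± 0.17 at E17.5 and 8.20 ± 0.44 at E11.5, SD, n = 5 each). Of the measured enzymes that break down glutathione and its conjugates outside the cell, *Ggt5* rose 30.1-fold, the dipeptidase *Dpep1* 10.5-fold and the aminopeptidase *Anpep* 2.82-fold, and the epoxide hydrolase *Ephx1* rose 10.5-fold. *Oplah*, which returns oxoproline to glutamate, rose 9.68-fold, while *Ggct*, the enzyme that forms oxoproline from glutamyl amino acids, fell by 3.06. *Chac1* and *Chac2*, which cleave glutathione inside the cell, went opposite ways (-0.49 and 0.79). *Abcc1*, an exporter of glutathione conjugates, fell by 2.31 and *Abcc4* by 0.51.

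The enzymes that make NADPH, on which both glutathione reductase and thioredoxin reductase depend, were split. *Tkt* and *Taldo1*, given beside them, belong to the non-oxidative pentose phosphate pathway, which makes no NADPH. *Me1*, the cytosolic malic enzyme, rose 5.65-fold and *Idh2*, mitochondrial isocitrate dehydrogenase, 2.14-fold. *Tkt*, transketolase of the pentose phosphate pathway, fell by 4.72 (6.87 ± 0.42 at E17.5 and 11.59 ± 0.10 at E11.5), *Nnt*, the mitochondrial transhydrogenase, by 0.59 and *Pgd*, of the oxidative pentose phosphate pathway, by 0.49, while *Idh1* (-0.05) and *Taldo1* (-0.14) did not pass. The 4 measured subunits of the phagocyte oxidase, best known from neutrophils and macrophages, were all higher, *Cybb* 3.93-fold, *Ncf1* 2.79-fold, *Ncf4* 7.42-fold and *Cyba* 2.08-fold, beside the rise of the macrophage and monocyte list given above, while *Nox4* fell by 1.26 and *Duox1* did not pass (0.40).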

How the data were processed

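RNA of 10 samples was amplified and labelled with NuGEN kits, hybridised to Affymetrix mouse arrays and analysed by the authors with Bioconductor in R. The deposited values are log2 signals of 21204 probe sets from 2.472 to 15.03, 1 column per array. How signals were background-corrected and normalized was not given in the sources used here. That they are log2 follows from their range. Of the probe sets, 17981 name 1 gene in the platform annotation, 514 several and 2709 none, and the last 2 kinds were left out. These 17981 covered 17813 genes, so nearly every gene had only 1, and a choice of the brightest was seldom made. Most differences therefore rest on 1 probe set. Whether the array holds further probe sets for these genes was not checked. All 71 members were found by Entrez identifier in RefSeq, and 0 symbols were updated.

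The fit used limma 3.58.1 in R 4.3.3 (lmFit, eBayes) with stage alone, and p-values were adjusted for 17813 genes. The script was tested on simulated data. Members, gene lists and the naming rule were chosen with earlier results of these data known: every member may be named, and values on all arrays are given for the 3 largest changes in each direction, the largest in each role group and a set of central genes. Intervals are 95% from limma. Alternatives were other scalings, choices of probe set, a filter on dim genes, a replicate block, array weights, other moderation, a test against a 2-fold change and leaving out each array. The number of arrays limits the precision. Figures were drawn with matplotlib 3.10.9.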

Additional observations from a re-analysis of the deposited data

Results flagged for a closer look

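Each of the 71 members was checked at each stage for an array far from its fellows, meaning a gap to the nearest array above 0.71 of the range of the 5. Of 142 such sets 11 held one, where chance gives about 7.1 (1 in 20). E17.5 replicate 4 was such an array for *Gstm1* (10.3, nearest other array 11.08), *Hmox1* (9.36, nearest 10.26) and *Txnl4a* (8.413, nearest 7.51). E11.5 replicate 4 was one for *Gstm2* (10.77, nearest 10.46) and *Hmox1* (8.888, nearest 9.027). On E17.5 replicate 1 *Gpx6* was at 5.875 (nearest 4.967), on E17.5 replicate 2 *Gstm7* was at 6.922 (nearest 6.083) and *Txndc15* at 11.32 (nearest 11.44), and on E17.5 replicate 5 *Txn1* was at 13.55 (nearest 13.5). On E11.5 replicate 1 *Txn2* was at 10.78 (nearest 11.29), and on E11.5 replicate 5 *Gstm6* was at 4.559 (nearest 3.725).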

How the results depend on the processing

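Outside the test against a 2-fold change, 45 of the 71 members kept their direction and call in every alternative that tested them. In that test 22 members were higher and 5 lower (against 40 and 13), with 18 and 5 of the other redox genes (against 33 and 14) and 3437 and 2045 of all genes (against 6568 and 5609). After quantile normalization 9 members were at least 2-fold lower, against 5, and 21 at least 2-fold higher, against 30 (22.1% and 20.1% of all genes). Without probe sets of the _x, _s and _a kinds 54 members were left, 30 of them higher and 10 lower, and 21 other redox genes were higher. Without dim genes 57 members were left, 37 of them higher and 12 lower. Of the 9818 genes left, 4780 were higher and 3463 lower (48.7% and 35.3%), fewer in number because fewer were tested. Signs turned after quantile normalization for *Gclm* (-0.46), *Gpx1* (-0.18), *Gpx5* (0.073), *Gpx7* (-0.055), *Gsto1* (-0.020), *Gstz1* (-0.089), *Mafg* (-0.28), *Nfe2l1* (-0.28), *Prdx2* (-0.29), *Sod1* (-0.22), *Srxn1* (-0.16), *Txndc8* (0.010) and *Txnrd3* (-0.071), after median centring for *Gclm* (-0.080), *Gstt4* (-0.061) and *Prdx2* (-0.034), and with array weights for *Gpx5* (0.0065). With array weights *Gpx6* (-0.48, adjusted p = 0.024) and *Txnl4b* (-0.33, 0.0099) passed as lower and *Txnrd3* as higher (0.42, 0.036), and *Gstm6* did not pass (-0.43, 0.052). *Gpx1* passed as higher (0.19) without dim genes (adjusted p = 0.042) and with trend and robust moderation (0.018), and *Txnl4b* as lower without dim genes (-0.24, 0.042). The cause was not tested. Leaving out single arrays gave 40 to 43 members higher and 12 to 14 lower, and the differences ran between -0.035 and 0.040 for *Gpx5*, -0.063 and 0.00023 for *Gpx8*, -0.014 and 0.18 for *Gstt4* and -0.22 and 0.14 for *Txnrd2*. Beside *Gstm4* and *Gpx6*, given above, calls were gained by *Gpx1* (0.22), *Mafg* (0.43), *Txndc2* (0.41), *Txnl4b* (-0.30) and *Txnrd3* (0.53) without E11.5 replicate 1, by *Gpx4* (-0.25) without E17.5 replicate 1, by *Txnl4b* without E17.5 replicate 3 (-0.29) or 4 (-0.28), and by *Mafg* (0.42) and *Txnrd3* (0.48) without E17.5 replicate 5. With the replicate number as a block 41 members were higher and 13 lower, *Txnrd3* passing as higher (adjusted p = 0.013). The sample labels do not say whether the numbers pair arrays of the 2 stages. Deviations of same-numbered arrays correlated at -0.29 to 0.07, none of the 5 pairs above 0.1, and 0 of 5 E17.5 arrays correlated best with its own number. These correlations cannot settle whether same-numbered arrays shared a batch or litter.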

Other observations

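The members were spread unevenly over the arrays within a stage. At E17.5, 29 of the 71 (40.8%) had their highest signal on replicate 1, against 25% of all genes, and 6 (8.45%) had their lowest there, against 20.9%. At E11.5, 24 (33.8%) had their lowest on replicate 1, against 26.9% of all genes, and 23 (32.4%) had their highest there, against 32.7%. This reading was made after the values were seen, and replicates of a stage have no order.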
